A study of Mus musculus with 4 samples.

Results

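Bone marrow progenitors in which RBPJ had been switched on for 6 days were compared with progenitors of uninduced mice. Cells were those in the authors' own cell tables, less any with 10 or more UMIs (molecular barcodes that count captured transcripts) over the neutrophil genes S100a8, S100a9 and Elane, the haemoglobin genes Hba-a1 and Hbb-bs and the platelet gene Pf4. This kept 2094 of 2129 cells 6 days after induction and 2735 of 2769 uninduced cells, 4829 of the 8883 cells of the study. Just inside the limit, 1 uninduced cell and 2 cells of the 6-day library had 7 to 9 such UMIs, and just outside, 1 and 0 had 10 to 12. Of 27998 genes, 7087 reached 10 CPM (UMIs of a gene scaled to a common library total) in either summed library. Of these 6741 did so in both, while 183 passed only through the 6-day and 163 only through the uninduced library and had to differ in that direction.

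The study sorted lymphoid-primed multipotent progenitors (LMPPs) by flow cytometry from bone marrow of C57BL/6 mice and profiled them in 10x Genomics droplets. It has 4 groups with 1 library each: control, RBPJ uninduced, RBPJ 3 days induced and RBPJ 6 days induced. The RBPJ mice lack RBPJ until doxycycline switches it on, with doxycycline at 2 mg/ml injected into the abdomen and then at 1 mg/ml in drinking water. The labels attach that treatment to every library, so whether control and uninduced mice received doxycycline, which promoter drives the inducible RBPJ, the genotype of the controls, the age and sex of the mice and how many mice each library pooled are not given in the sources used here.

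RBPJ is the DNA-binding protein of the Notch pathway. When a ligand on a neighbouring cell triggers cleavage of a Notch receptor, the freed intracellular part joins RBPJ and Mastermind on target genes such as Hes1 and switches them on, and without it RBPJ can recruit corepressors to the same sites. LMPPs retain lymphoid and some myeloid potential, and Notch signals direct their descendants toward the T cell lineage. Immediate early genes are transcribed within minutes of a stimulus, tissue handling included, and heat shock genes encode chaperones made when proteins misfold.

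Cells kept came to 2682 for control, 2735 for uninduced, 1275 for 3 days and 2094 for 6 days, and in that order the libraries had 23418298, 20653811, 10499558 and 17090136 UMIs in all and medians of 7924, 6774, 7655 and 7360 UMIs per cell. LMPP markers were present in both libraries compared: 11 of 12 genes of the surface and identity list passed 10 CPM, with a median log2 ratio of -0.01. Markers of other cell types were also present. Of myeloid progenitor genes 13 of 18 passed 10 CPM, with the whole list at 3335 CPM at 6 days and 3433 in uninduced. Of stem cell genes, a list that shares Kit, Cd34 and Ly6a with the LMPP list, 13 of 25 passed. That whole list stood at 1072 CPM at 6 days and 1207 in uninduced. Of dendritic cell genes 9 of 16 passed, with the whole list at 917 and 931 CPM. Fewer passed in other lists, with 4 of 20 T lineage, 7 of 20 B lineage, 3 of 18 mature neutrophil and monocyte, 4 of 15 erythroid and 2 of 12 megakaryocyte genes past 10 CPM, and no UMI of the T cell genes Cd3e, Il2ra and Trat1 in either library. The cells left out made up 0.408% of control, 1.23% of uninduced, 1.32% of 3-day and 1.64% of 6-day cells, and the 6-day and uninduced cells shared 17 barcodes, where independent draws would give 7.996. With 1 library per group no difference has a replicate check, library and group cannot be told apart, no test was made, and the 95% intervals in brackets cover counting error only.

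Over the 7332 genes at 10 CPM or more in any library, the 6-day library differed from the uninduced by a median of 0.09 on the log2 scale in either direction, from control by 0.12 and from the 3-day library by 0.13. The signed medians were -0.04, -0.10 and -0.02, so the difference from control included an offset of the median. CPM are shares of a library total, and the part of that scaling in the offset was not tested. At 1.5-fold 48 genes were higher and 25 lower than in uninduced, and 27 and 10 than in control. Against the 3-day library the counts were 95 and 45. By these counts the 6-day library was nearest to control, and by the median difference nearest to uninduced. Over 179 genes with transcript ends shared with other genes the median differences were 0.14, 0.10 and 0.18, so there the 6-day library was nearest to control. Ribosomal protein pseudogenes, 16 in all, summed to 3462 CPM at 6 days, 2246 in uninduced, 3333 in control and 2376 at 3 days. Reads of such copies cannot be assigned with certainty to 1 gene. The sex-linked transcripts also differed: Xist, the noncoding RNA of the inactive X chromosome, stood at 1761 CPM at 6 days, 1215 in uninduced, 1111 in control and 1072 at 3 days, and the Y-linked Ddx3y at 20.8 CPM at 6 days, 33.8 in uninduced, 29.3 in control and 30.9 at 3 days. The 6-day library had the highest Xist and the lowest Ddx3y level of the 4, and the part of these differences in the results was not tested.

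Induction of RBPJ for 6 days went with a far higher level of Rbpj and of its target Hes1, and with lower immediate early genes led by Klf2 and Klf6. Of the 7087 genes, 6 (0.0847%) stood 2-fold or more above uninduced in 6-day cells and 6 (0.0847%) stood 2-fold or more below, on the CPM + 1 scale. At 1.5-fold the counts were 47 higher (0.663%) and 22 lower (0.31%), and at a smaller limit of 0.32 on the log2 scale they were 180 (2.54%) and 161 (2.27%). The median log2 ratio over all genes was -0.04, and 99.0% lay within 1.5-fold. Below equal levels lay 4341 genes (61.3%), and 2746 (38.7%) lay above. These shares are the background for the counts by gene group that follow.

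**Figure D1:**
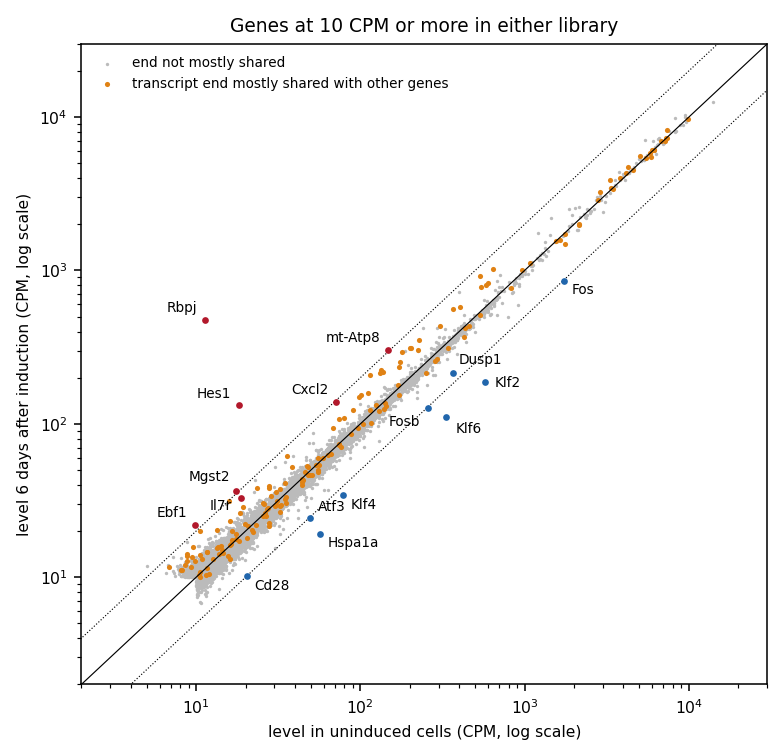
Each point is 1 of 7087 genes, with its level in uninduced cells on the horizontal and in 6-day cells on the vertical axis, both in CPM on log scales; the solid line marks equal levels, dotted lines mark 2-fold, and orange points have transcript ends mostly shared with other genes. Rbpj and Hes1 stand far above the line, and Klf2, Klf6 and Hspa1a lie below the lower dotted line.

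Rbpj (ENSMUSG00000039191; GRCm38 chr5:53466152-53657362, plus strand, protein coding) stood at 474 CPM at 6 days, 11.3 in uninduced, 17.8 in control and 472 at 3 days. Both induced libraries were high and within counting error of each other, and the order of the levels matches the labels of induction. The 6-day level was 42.0-fold (36.9 to 48.1) the uninduced and 26.7-fold (24.2 to 29.5) the control level. The labels do not say which part of Rbpj is deleted, so a 3' read in uninduced cells does not measure remaining RBPJ. When 4000 UMIs were drawn from every cell that had them (1912 of 2094 cells at 6 days, 2382 of 2735 uninduced), 38.2% (36.0 to 40.5) of 6-day and 3.99% (3.24 to 4.85) of uninduced cells held a Rbpj UMI, against 45.3% and 6.95% before thinning. Most 6-day cells therefore had no Rbpj UMI at this depth. Free RNA was read from droplets with 10 to 100 UMIs, where Rbpj stood at 285 CPM at 6 days and 4.30 CPM in uninduced, and no cell type here is known to lack the gene.

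Rbpj was uneven among the 6-day cells. It stood at 621 CPM in thinned cells with a UMI of the proliferation genes Mki67 or Top2a and at 249 CPM in cells with neither. In uninduced cells the same split gave 10.0 and 12.5 CPM, so the higher Rbpj of cycling cells appeared in the induced library and not in the uninduced one. The share of cells with either proliferation transcript was 39.5% (37.3 to 41.8) at 6 days and 39.8% (37.8 to 41.8) in uninduced.

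Hes1, a basic helix-loop-helix repressor and a direct Notch target (ENSMUSG00000022528; GRCm38 chr16:30064384-30067796, plus strand, protein coding), stood at 132 CPM at 6 days, 18.2 in uninduced, 90.02 in control and 44.1 at 3 days. Uninduced cells were lowest, 3-day cells lay between, and 6-day cells passed the control level. The 6-day level was 7.26-fold (6.51 to 8.12) the uninduced, 2.99-fold (2.70 to 3.31) the 3-day and 1.46-fold (1.38 to 1.55) the control level. After thinning, 24.1% (22.2 to 26.0) of 6-day, 5.29% (4.43 to 6.27) of uninduced and 17.6% (16.2 to 19.2) of control cells held a Hes1 UMI, and the unthinned shares were 31.04%, 8.23% and 24.6%. Among the neutrophil, red cell and platelet-like cells left out, Hes1 was seen in 2 of 35 at 6 days and 1 of 34 in uninduced, at median depths of 5575 and 6727 UMIs. Those shares allow up to 19.2% and 15.3%. The unthinned 6-day share in progenitors lay above its limit, but the 6-day cells left out were shallower than those kept, with a median of 7360 UMIs. With 34 cells left out, the uninduced limit is too wide to place the uninduced share against it.

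Hes1 was higher at 6 days within each split of the cells examined. The fold over uninduced was 7.96-fold (5.96 to 10.8) in cells with Mki67 or Top2a and 7.57-fold (6.29 to 9.17) in cells without. Cells with and without a Rbpj UMI both had the difference, at 114 against 23.7 CPM and 173 against 19.3 CPM. The 23.7 CPM came from only 95 uninduced cells. Their Hes1 UMIs numbered 2 in cells with Mki67 or Top2a and 7 in cells without. Within the 6-day library Hes1 was lower where Rbpj was seen, also at matched proliferation status. In cells with Mki67 or Top2a it stood at 95.1 CPM (80.7 to 111) with and 134 CPM (116 to 155) without a Rbpj UMI. In the remaining cells it stood at 136 CPM (117 to 157) with and 189 CPM (175 to 205) without one.

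Most other core Notch targets were under the 10 CPM minimum. Of 14 listed genes 3 reached 10 CPM, namely Hes1, Myc and the receptor gene Notch1, and Myc, a growth regulator, stood at 111 against 99.1 CPM and Notch1 at 55.4 against 51.3 CPM. Nrarp, a feedback inhibitor of Notch, was at 4.45 against 6.58 CPM, Hes5 at 5.27 against 5.08 CPM, and Ptcra, the pre-T cell receptor alpha chain, at 6.14 against 4.26 CPM with 87.6% of its 6-day UMIs in 10 cells. No UMI of Heyl, Il2ra or Cd3e was seen. Of 32 pathway components 21 passed 10 CPM with a median log2 ratio of 0.04, 0 beyond 1.5-fold. Lfng, the fringe enzyme that modifies Notch receptors, had the highest ratio among them, at 20.3 CPM at 6 days, 14.6 in uninduced, 21.4 in control and 12.2 at 3 days, 1.39-fold (1.19 to 1.63) the uninduced level. Its 6-day and control levels were alike, and its 3-day level was the lowest.

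**Figure D2:**
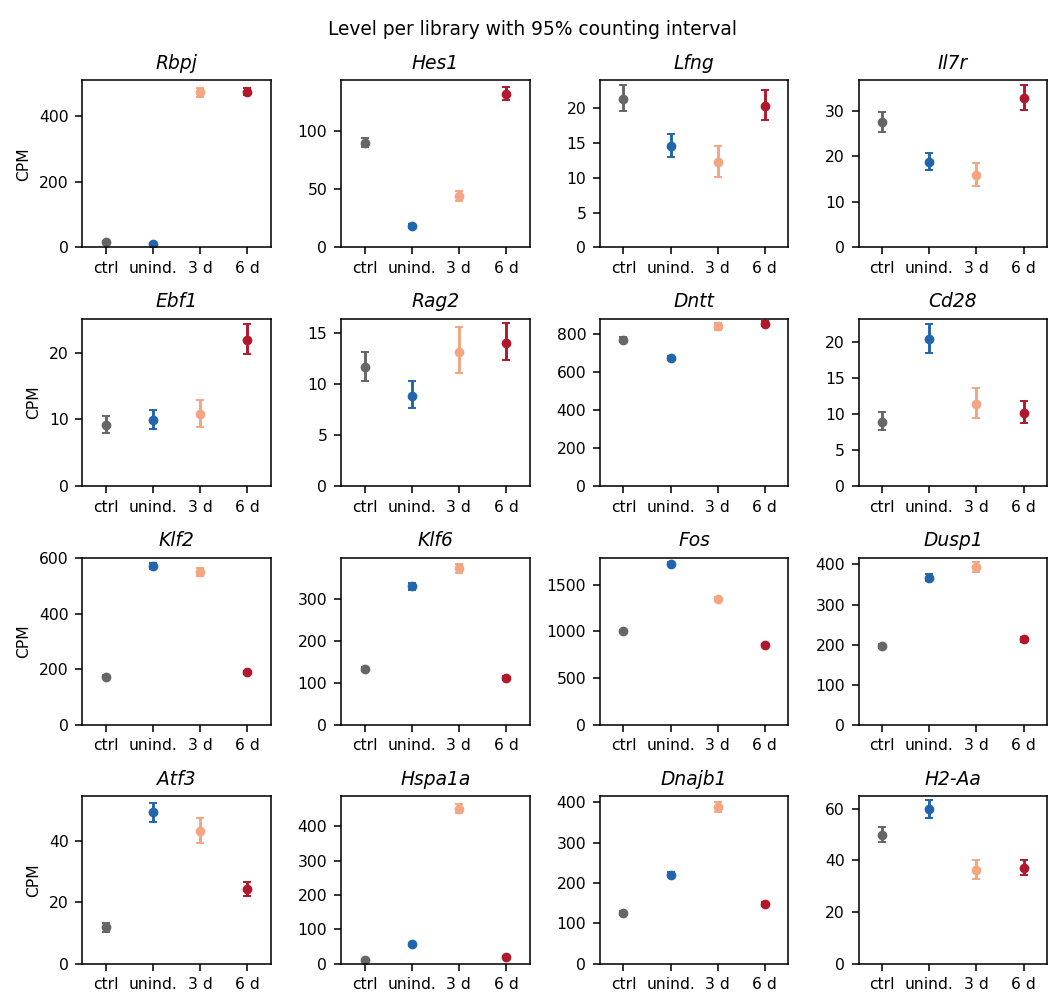
Level of 16 genes in CPM in the control (ctrl), uninduced (unind.), 3-day and 6-day libraries, 1 point per library with its 95% Poisson counting interval, each panel from 0 on its own scale. Hes1 is highest at 6 days, Klf2 and Klf6 are high in uninduced and 3-day cells, and Hspa1a is high at 3 days.

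Lymphoid priming genes leaned higher at 6 days, mostly by small amounts. Of 30 listed genes 24 passed 10 CPM, 17 of them above and 7 below equal levels, with a median log2 ratio of 0.12 against -0.04 over all genes (0.12 over the 24 members whose mean over the 4 libraries reached 10 CPM). Il7r and Rag2 passed 1.5-fold higher and 0 passed lower, and at 0.32 on the log2 scale 6 were higher and 0 lower. Summed over the list, the level was 3571 CPM at 6 days, 3228 in uninduced, 3483 in control and 3278 at 3 days. The median number of these UMIs per thinned cell was 13 at 6 days, 12 in uninduced, 13 in control and 12 at 3 days. The 6-day and control libraries were the higher ones by either measure, and in these sums fewer cells of a type and less RNA per cell cannot be told apart.

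Il7r, the interleukin 7 receptor that lymphoid progenitors need (ENSMUSG00000003882; GRCm38 chr15:9505788-9530176, minus strand, protein coding), stood at 32.7 CPM at 6 days, 18.8 in uninduced, 27.5 in control and 15.8 at 3 days. The 6-day level was the highest and the 3-day level the lowest of the 4. It was 1.74-fold (1.53 to 1.99) the uninduced and 1.19-fold (1.06 to 1.34) the control level. After thinning, 8.68% (7.46 to 10.0) of 6-day and 5.12% (4.27 to 6.08) of uninduced cells held an Il7r UMI (15.8% and 9.40% unthinned). Among the cells left out, 5 of 35 did at 6 days, 14.3% (4.81 to 30.3), and 0 of 34 did in uninduced, for which the Clopper-Pearson interval reaches 10.3%. Both unthinned shares lay within these intervals, and no difference was read from them.

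Among other lymphoid genes, Rag2, a subunit of the antigen receptor recombinase, stood at 14.0 CPM at 6 days, 8.86 in uninduced, 11.7 in control and 13.1 at 3 days, 1.58-fold (1.30 to 1.93) the uninduced level. It passed 10 CPM only through 6-day cells among the libraries compared, and a filter of 20 CPM in either library removed it. Rag2 fell short of 1.5-fold when cells with 3 or more UMIs of the cell rule genes were left out, and with a pseudocount of 5 CPM. The same held in thinned cells and as a mean of per-cell CPM. It also held without the 5% of cells with most UMIs and without the 10 cells with most Rag2 UMIs. Dntt, the terminal transferase that marks lymphoid-primed progenitors, stood at 856 CPM at 6 days, 675 in uninduced, 772 in control and 841 at 3 days. Its uninduced level was the lowest, and the 6-day level was 1.27-fold (1.24 to 1.30) that. Ccr9, a homing receptor of thymus-seeding cells, was at 1.42-fold, the B cell adaptor gene Blnk at 1.39-fold and the coregulator gene Mn1 at 1.29-fold of uninduced. Flt3, the cytokine receptor that defines LMPPs, was at 1.06-fold (1.01 to 1.11), and Ikzf1, the Ikaros factor of lymphoid development, at 1.13-fold (1.07 to 1.19). Ltb, encoding lymphotoxin beta, was the lowest member at 0.884-fold (0.823 to 0.948).

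B lineage genes had 7 of 20 members past 10 CPM, a median of 0.13, 2 at least 1.5-fold higher and 0 lower. Those 2, Ebf1 and Rag2, passed the minimum only through the 6-day library and so had to be higher there. Ebf1, the transcription factor that commits cells to the B lineage (ENSMUSG00000057098; GRCm38 chr11:44617317-45008091, plus strand, protein coding), stood at 21.9 CPM at 6 days, 9.88 in uninduced, 9.18 in control and 10.8 at 3 days. Only the 6-day library stood apart, 2.22-fold (1.86 to 2.64) the uninduced level, and 10 cells held 33.7% of its 6-day and 46.1% of its uninduced UMIs. In thinned cells with an Il7r or Ly6d UMI Ebf1 was at 109 against 86.8 CPM, 1.26-fold (0.896 to 1.78), an interval that includes equal levels. Such cells made up 11.1% (9.76 to 12.6) of 6-day and 7.01% (6.02 to 8.11) of uninduced cells. In the remaining cells Ebf1 was at 6.62 against 3.05 CPM, 2.17-fold (1.32 to 3.64). Ly6d, a surface marker of B-biased progenitors, was high in both libraries compared, at 29.1 CPM at 6 days, 26.4 in uninduced, 12.5 in control and 12.2 at 3 days, and 10 cells held 39.4% of its 6-day UMIs.

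T lineage genes were low. Of 20 listed genes 4 passed 10 CPM, with a median of 0.02. Cd28, a costimulatory receptor of T cells, was the single one beyond 1.5-fold, at 10.2 CPM at 6 days, 20.4 in uninduced, 8.92 in control and 11.4 at 3 days. Uninduced cells were the high library, and the 6-day level was 0.499-fold (0.416 to 0.597) theirs. The kinase gene Lck, which acts below the T cell receptor, was at 61.3 against 60.3 CPM. Gata3, a factor of T cell commitment, was at 3.34 against 4.50 CPM, and its partner Tcf7 at 0.117 against 0.194 CPM.

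Of the 38 gene lists, the immediate early genes had the most members beyond 1.5-fold. Of 30 listed genes 26 passed 10 CPM, 22 lower and 4 higher, with a median log2 ratio of -0.33 against -0.04 over all genes. At 1.5-fold 10 were lower and 0 higher, and at 0.32 on the log2 scale 13 were lower and 1 higher. Their summed level was 5935 CPM at 6 days, 8876 in uninduced, 5691 in control and 8248 at 3 days. The uninduced and 3-day libraries were high and the 6-day and control libraries low, the same pairing as for the pseudogenes above. The part of that pairing in the difference was not tested.

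Klf2, a zinc finger factor of lymphocyte quiescence and trafficking (ENSMUSG00000055148; GRCm38 chr8:72319033-72321656, plus strand, protein coding), stood at 189 CPM at 6 days, 571 in uninduced, 172 in control and 552 at 3 days. Klf6, its relative, stood at 111 CPM at 6 days, 330.2 in uninduced, 133 in control and 373 at 3 days. For both, 6-day and control cells were low and the other libraries well above them, with 6-day folds of 0.331-fold (0.318 to 0.344) and 0.336-fold (0.319 to 0.353) over uninduced. Fos, an AP-1 subunit and a common marker of this response, stood at 856 CPM at 6 days, 1726 in uninduced, 1007 in control and 1344 at 3 days, 0.496-fold (0.486 to 0.505) the uninduced level. Dusp1, a phosphatase that switches MAP kinases off, stood at 213 CPM at 6 days, 367 in uninduced, 196 in control and 394 at 3 days, 0.581-fold (0.559 to 0.605). The 6-day level of Fos was the lowest of the 4 libraries, and that of Dusp1 was next to control.

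Other immediate early genes are given by family. The AP-1 subunit Fosb was at 0.487-fold, Jun at 0.628-fold and Jund at 0.653-fold of uninduced, while Junb was at 0.825-fold. Fosl2, another AP-1 subunit, was at 1.51-fold (1.22 to 1.89), but passed 10 CPM only through the 6-day library (11.0 against 7.26 CPM) and so had to be higher there. Klf4, a factor of myeloid differentiation, was at 0.439-fold. The stress factor Atf3 stood at 24.2 CPM at 6 days, 49.4 in uninduced, 11.8 in control and 43.4 at 3 days, 0.490-fold (0.436 to 0.550) the uninduced but 2.05-fold (1.75 to 2.39) the control level, so its 6-day level lay between them. Rhob, a small GTPase, was at 0.595-fold. Egr1, a zinc finger factor induced by growth signals, was at 0.898-fold (0.861 to 0.937), the orphan receptor gene Nr4a1 at 0.880-fold, and the early genes Ier3 at 1.05-fold and Dusp2 at 1.05-fold.

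The lower levels were spread over the cells. After thinning, the median cell held immediate early UMIs numbering 22 at 6 days, 33 in uninduced, 21 in control and 31 at 3 days, and the 10th and 90th percentiles were 8 and 50 at 6 days and 13 and 67.9 in uninduced. Both ends of the distribution and its middle were lower at 6 days. Klf2 was at 0.312-fold (0.283 to 0.344) in cells with and 0.361-fold (0.336 to 0.387) in cells without a proliferation transcript, and Fos at 0.513-fold (0.490 to 0.538) and 0.503-fold (0.485 to 0.520). With and without a Rbpj UMI, Klf2 was at 0.371-fold (0.312 to 0.442) and 0.367-fold (0.343 to 0.392). The 10 cells with most Klf2 UMIs held 4.93% of them at 6 days.

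**Figure D3:**
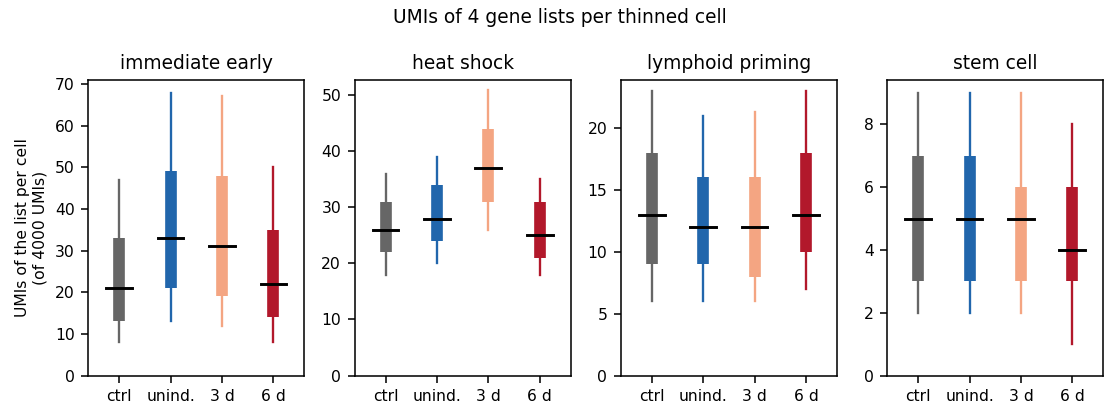
UMIs of 4 gene lists per cell in each library after thinning to 4000 UMIs a cell; black bars are medians over cells, boxes run from the 25th to the 75th percentile and lines from the 10th to the 90th. Immediate early medians are 22 at 6 days, 33 in uninduced, 21 in control and 31 at 3 days, and the heat shock median is highest at 3 days.

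Promoters of 3 of these immediate early genes and of Hspa1a are shown because all 4 genes were lower together at 6 days. They come from RefSeq (GRCm38.p6) and run from 250 bases before to 50 after the start, 5′ to 3′ on the gene's strand. Capitals mark the core of the cAMP response element, TGACG, on either strand (CGTCA on the other), which may overlap within TGACGTCA, and for Hspa1a the heat shock element GAANNTTC. The sequences are at chr12:85473640-85473939, plus strand, for Fos, chr8:72318812-72319111, plus strand, for Klf2, chr17:26508423-26508722, minus strand, for Dusp1 and chr17:34972107-34972406, minus strand, for Hspa1a.
Fos: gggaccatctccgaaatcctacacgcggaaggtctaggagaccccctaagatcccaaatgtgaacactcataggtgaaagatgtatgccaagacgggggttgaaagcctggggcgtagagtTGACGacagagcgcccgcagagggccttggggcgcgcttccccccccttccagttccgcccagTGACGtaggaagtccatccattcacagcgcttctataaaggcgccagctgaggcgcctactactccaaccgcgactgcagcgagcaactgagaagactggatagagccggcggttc
Klf2: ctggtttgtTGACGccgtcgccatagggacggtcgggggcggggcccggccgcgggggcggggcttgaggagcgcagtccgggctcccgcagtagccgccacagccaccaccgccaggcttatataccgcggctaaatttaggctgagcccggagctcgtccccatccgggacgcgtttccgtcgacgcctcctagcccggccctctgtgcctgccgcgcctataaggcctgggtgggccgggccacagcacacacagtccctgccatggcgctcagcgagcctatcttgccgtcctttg
Dusp1: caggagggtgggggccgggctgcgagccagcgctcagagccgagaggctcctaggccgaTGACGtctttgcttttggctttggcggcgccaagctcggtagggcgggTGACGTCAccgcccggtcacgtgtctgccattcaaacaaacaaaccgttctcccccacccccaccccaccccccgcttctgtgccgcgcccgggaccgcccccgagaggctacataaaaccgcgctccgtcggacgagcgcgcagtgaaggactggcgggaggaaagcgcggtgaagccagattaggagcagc
Hspa1a: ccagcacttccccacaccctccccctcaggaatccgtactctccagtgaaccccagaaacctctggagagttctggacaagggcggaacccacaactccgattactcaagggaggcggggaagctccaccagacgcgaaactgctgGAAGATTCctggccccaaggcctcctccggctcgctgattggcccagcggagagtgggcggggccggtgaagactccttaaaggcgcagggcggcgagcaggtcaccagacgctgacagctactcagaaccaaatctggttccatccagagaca
TGACG began 129 and 66 bases before the start in Fos and 241 before it in Klf2, and Dusp1 held the full TGACGTCA 143 bases before. Counting genes with a match in any of their promoters, it was in 14 of 23 immediate early genes with a sequence, in 7 of 13 of the genes with the lowest ratios and in 3 of 11 of those with the highest, against 23.0% of 27025 genes. These counts overlap: of the lowest genes with a match, all but Tsc22d3 (Klf2, Klf4, Fosb, Fos, Atf3 and Dusp1) are immediate early genes. The lowest and highest genes were also picked by these same ratios. The heat shock element of Hspa1a began 104 bases before its start, and 9.04% of genes have a match in any promoter. TGGGAA, the core bound by RBPJ, was in 4 of 11 of the highest and 3 of 13 of the lowest genes, against 28.3% of all. TGGGAA was in 6 of the 23 immediate early genes. The 4 highest genes with a match include Rbpj itself, the gene switched on by doxycycline. Hes1, also among the highest, had no promoter sequence to search and is not in that count. Other elements were searched in the same 23 genes. The full cAMP response element was in 3 (2.03% of all genes), and the heat shock element was in 2. The AP-1 element was in 2 (8.97% of all genes), and the 10-base serum response element was in 0 (0.0777%). TGACG, the shortest of the motifs searched, had the most matches in these 23 genes. A match describes these letters only.

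Heat shock genes differed at few members. Of 23 listed genes 18 passed 10 CPM, 1 of them at least 1.5-fold lower, 3 lower by 0.32 or more on the log2 scale and 0 higher by either limit, with a median of -0.06 and a summed level of 6747 CPM at 6 days, 7324 in uninduced, 6925 in control and 9542 at 3 days. The 3-day library was the high one. Hspa1a, the inducible HSP70 chaperone (ENSMUSG00000091971; GRCm38 chr17:34969190-34972156, minus strand, protein coding), stood at 19.3 CPM at 6 days, 57.0 in uninduced, 10.8 in control and 451 at 3 days. Its 6-day level was 0.338-fold (0.298 to 0.382) the uninduced and 0.0427-fold (0.0381 to 0.0477) the 3-day level, but 1.78-fold (1.51 to 2.11) the control level, and free RNA held it at 68.8 CPM at 6 days, 75.3 in uninduced and 637 at 3 days. In each of these libraries the free RNA level was above that in cells, and how much of the cell level came from free RNA was not tested. Dnajb1, its HSP40 cochaperone, stood at 148 CPM at 6 days, 220.2 in uninduced, 126 in control and 389 at 3 days, 0.672-fold (0.640 to 0.705) the uninduced level. Hspa5, the chaperone of the endoplasmic reticulum, was at 0.707-fold (0.676 to 0.739). The constitutive chaperone genes Hsp90ab1 and Hspe1 were at 0.935-fold and 0.999-fold, and Hsph1, an HSP110 that stood at 36.4 CPM at 3 days, was at 14.8 against 12.8 CPM.

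Other stress programmes differed little between 6-day and uninduced cells. Over 23 integrated stress response genes past 10 CPM the median was -0.09 with 0 beyond 1.5-fold, and over 17 genes of the unfolded protein response it was -0.03 with 0. The p53 and apoptosis list had a median of -0.04 over 12 genes, and 2 were lower by 0.32 or more on the log2 scale. Interferon response genes were lower by small amounts, 22 of 25 below equal levels with a median of -0.18 and 0 beyond 1.5-fold on the CPM + 1 scale. Isg15, an antiviral ubiquitin-like protein, was at 0.788-fold (0.711 to 0.873), and Gbp2, a guanylate-binding protein, at 0.637-fold (0.504 to 0.802). Of the 25 genes 21 passed 10 CPM in both libraries, while the other 4, Gbp2 among them through the uninduced library, passed in 1 and had to differ in its direction. Among feedback inhibitors of cytokine signalling Socs2 was at 13.4 CPM at 6 days, 8.09 in uninduced, 7.09 in control and 4.38 at 3 days and Socs3 at 51.2 CPM at 6 days, 64.4 in uninduced, 72.2 in control and 28.5 at 3 days. Socs2, which passed 10 CPM only through the 6-day library and so had to be higher there than in uninduced cells, was highest at 6 days, and both were lowest at 3 days.

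**Figure D4:**
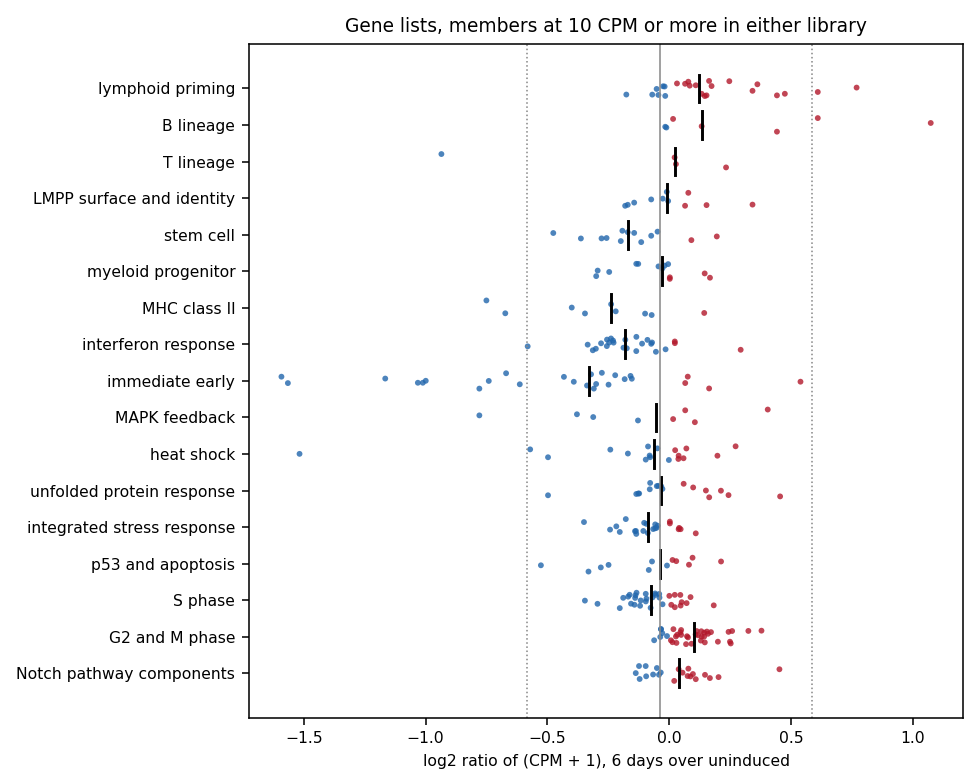
Log2 ratio of (CPM + 1) of 6-day over uninduced cells for members of 17 gene lists at 10 CPM or more in either library, 1 point per gene; black bars are list medians, the grey line is the median of all genes and dotted lines mark 1.5-fold. Immediate early genes extend furthest to the left, and lymphoid priming and G2 and M phase genes lean to the right.

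MHC class II and stem cell genes were lower, mostly by small amounts. Of 10 class II genes 9 passed 10 CPM, 8 of them lower, with a median of -0.24, 2 at least 1.5-fold lower and 4 lower by 0.32 or more on the log2 scale. H2-Eb1 and H2-Aa, antigen-presenting chains, stood at 0.585-fold (0.519 to 0.658) and 0.621-fold (0.563 to 0.684), and their companion Cd74, the invariant chain, at 113 CPM at 6 days, 150.0 in uninduced, 114 in control and 83.8 at 3 days. The 3-day level of Cd74 was the lowest, 6-day and control levels were alike, and 10 cells held 19.9% of the 6-day UMIs. Of 13 stem cell genes past 10 CPM 11 were lower, with a median of -0.17. Hlf, a factor of stem cell maintenance, stood at 51.0 CPM at 6 days, 71.4 in uninduced, 66.9 in control and 51.7 at 3 days, 0.715-fold (0.657 to 0.778) the uninduced level, and Meis1, a homeobox partner of the Hox genes, was at 0.835-fold (0.780 to 0.894). Myeloid progenitor genes had a median of -0.03 over 13 genes with 0 beyond 0.32 either way.

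Cell cycle lists differed by small amounts. G2 and M phase genes had 32 of 38 members above equal levels, a median of 0.10 and 0 beyond 1.5-fold, and Ttk, a kinase of the spindle checkpoint, was at 1.32-fold (1.11 to 1.58). S phase genes had a median of -0.08 over 33 genes, 23 of them lower (61.3% of all genes were). Nuclear oxidative phosphorylation genes had a median of -0.05 over 45 genes. Mitochondrially encoded genes had a median of 0.17 over 13 genes with 3 at least 1.5-fold higher, namely mt-Atp8, which overlaps mt-Atp6, and mt-Nd3 and mt-Nd4l, of which 98.1% and 98.9% of the transcript end is shared with other genes. The levels of mt-Nd3 and mt-Nd4l are uncertain for that reason. The end of mt-Atp8 was not mostly shared, and its log2 ratio of 1.03 was the highest of the list. How its overlap with mt-Atp6 affects its level was not tested.

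Among the other genes with the highest ratios, Cxcl2, a chemokine that attracts neutrophils, stood at 139 CPM at 6 days, 71.2 in uninduced, 24.4 in control and 124 at 3 days. The control level was the lowest and the 6-day level the highest, 1.94-fold (1.82 to 2.08) the uninduced level, and the fold was larger in cells without proliferation transcripts, at 2.50-fold (2.24 to 2.79), than in cells with them, at 1.48-fold (1.24 to 1.78). Other chemokine genes differed less, with Ccl3 at 1.08-fold and Ccl4 at 0.980-fold of uninduced. Mgst2, a microsomal glutathione transferase, stood at 36.7 CPM at 6 days, 17.6 in uninduced, 23.3 in control and 20.9 at 3 days, 2.09-fold (1.83 to 2.38). The long noncoding RNA 2610035D17Rik stood at 30.1 CPM at 6 days, 15.3 in uninduced, 30.5 in control and 29.0 at 3 days, with uninduced as the single low library. Vps8, of endosomal sorting, was at 1.93-fold (1.60 to 2.34) with control and 6-day levels alike. Dqx1 was at 2.35-fold (1.84 to 3.00), but 10 cells held 78.2% of its 6-day UMIs. It stayed under 20 CPM in both libraries, so it passed 10 CPM only through the 6-day library and had to be higher there.

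Among the lowest ratios outside these lists, Tsc22d3, the glucocorticoid-induced leucine zipper, stood at 37.3 CPM at 6 days, 63.9 in uninduced, 55.2 in control and 60.8 at 3 days, 0.585-fold (0.531 to 0.643) the uninduced level. It was lower at 6 days than in any other library. Lgmn, a lysosomal protease, stood at 19.0 CPM at 6 days, 32.6 in uninduced, 10.7 in control and 21.7 at 3 days, 0.584-fold (0.510 to 0.667). Serpina3g, a serine protease inhibitor, was at 0.602-fold (0.539 to 0.672) and fell short of 1.5-fold without the 10 cells that held most of its UMIs, while the predicted transcript Gm26532 was at 0.518-fold (0.447 to 0.599) with control and 6-day levels alike. Of its UMIs at 6 days, 10 cells held 9.36%.

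Transcripts whose ends are mostly shared with other genes made up much of the higher side. A gene counted as such when another gene held at least 50% of the 31-base words found in its transcripts' final 500 bases. Of 175 such genes 20 were higher by 1.5-fold or more and 0 lower, with a median log2 ratio of 0.04, while among 6906 genes whose ends were not mostly shared 27 were higher and 22 lower. Nme2, a nucleoside diphosphate kinase, Kpna2, an importin, and Rpl36-ps3, a ribosomal pseudogene, were among the 15 highest ratios at 1.98-fold, 1.89-fold and 1.83-fold, and all have mostly shared ends. Wdr89, with 27.3% shared, stood at 723 CPM at 6 days, 397 in uninduced, 738 in control and 439 at 3 days, again with 6-day and control levels alike. How the reads of such genes were assigned was not tested.

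**Figure D5:**
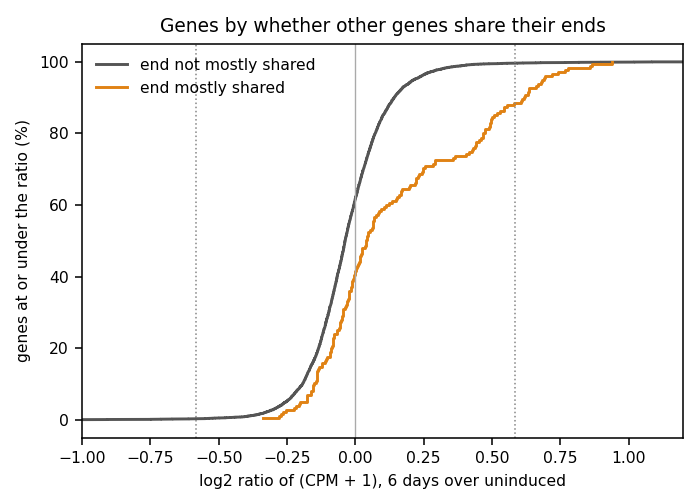
Share of genes in percent at or under each log2 ratio of (CPM + 1), 6 days over uninduced, for 175 genes with mostly shared transcript ends (orange) and 6906 others (grey), with dotted lines at 1.5-fold. The orange curve lies to the right, with 20 genes beyond the upper line and 0 beyond the lower.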

How the data were processed

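Cells were sorted from bone marrow and profiled in 10x Genomics droplets sequenced on a NextSeq 500, per the labels' protocols, 1 library per group. The deposited matrices give UMIs as whole counts, with 27998 genes by 737280 barcodes. The authors' further tables hold log2 values of counts divided by a size factor per cell plus 1, as checked on 300 genes per library, and served only to list the cells. Deposited gene and barcode identifiers link these files. The submitters' processing notes name Seurat and mm10 and give neither a role nor a version. The aligner, counter and annotation are not given in the sources used here.

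UMIs were summed over kept cells and scaled to CPM by the library total. Ratios are log2 of (CPM + 1) and folds are ratios of CPM. At 95%, levels carry exact Poisson, shares Clopper-Pearson and folds conditional exact intervals. Thinning drew 4000 UMIs per cell. Named genes were the 15 highest and 15 lowest ratios at 10 CPM or more, apart from haemoglobin, sex-linked and antigen receptor genes and the 6 genes of the cell rule, up to 4 members each way of each of 38 lists, Rbpj, the core Notch targets, and members of the lymphoid priming, heat shock and immediate early lists. The members and lists were chosen with earlier results of these data known. Gene ends and coordinates came from GENCODE vM21 (GRCm38). There were 12 planned and 2 added alternatives, with edgeR 4.0.16 in R 4.3.3 for TMM and relative log expression factors only. Doublets were kept. The scripts were tested on simulated data and used Python 3.11.15, numpy 2.4.6, scipy 1.17.1 and pandas 2.3.3.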

Additional observations from a re-analysis of the deposited data

Results flagged for a closer look

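Hspa1a, the inducible HSP70 gene, had a log2 ratio of -1.52 at 6 days over uninduced, whereas at 3 days it was higher than in uninduced cells by more than 1.5-fold. Both contrasts share the uninduced library, and the difference between them was not tested. Socs2, a feedback inhibitor of cytokine signalling, had a log2 ratio of 0.66 at 6 days over uninduced and was lower than uninduced at 3 days by more than 1.5-fold, a difference that was not tested either. Socs2 passed 10 CPM only through the 6-day library and so had to be higher there than in uninduced cells. It fell short of 1.5-fold with a pseudocount of 5 CPM, in thinned cells, as a mean of per-cell CPM and without the 5% of cells with most UMIs. Filters at 20 CPM in either library and at a mean of 10 CPM over the 4 libraries removed it. Cells left out of the comparison for 10 or more UMIs of neutrophil, haemoglobin or platelet genes made up 1.64% of the 6-day cells against 0.408% of control cells. In uninduced cells the share was 1.23% (0.852 to 1.71), an interval that overlaps that of the 6-day cells (1.15 to 2.28). Of the 35 left-out 6-day cells 27 were counted mainly for S100a8, S100a9 or Elane.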

How the results depend on the processing

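No paired analysis was possible because a single library stands for each group. With no gene filter 19 genes stood 2-fold or more above uninduced and 12 below, and at 1.5-fold the counts were 142 and 83. With a pseudocount of 5 CPM 3 genes were at least 2-fold higher. Without genes whose ends are mostly shared, an alternative chosen after seeing the data, 27 were at least 1.5-fold higher. The Rbpj fold was 34.3 in thinned cells and 33.3 as a mean of per-cell CPM. Across the 14 alternatives the list medians ranged from -0.36 to -0.29 for immediate early, -0.08 to -0.03 for heat shock and 0.05 to 0.16 for lymphoid priming genes. Filters on genes cannot move a ratio and only remove genes: of 39 named genes beyond 1.5-fold, 34 passed 20 CPM in either library, 38 a mean of 10 CPM over the 4 libraries and 34 the removal of mostly shared ends. In the alternatives that recompute ratios between 35 and 39 were in the set and beyond 1.5-fold, and 0 changed sign. Rag2, Socs2, Jund, H2-Aa, mt-Nd4l and Serpina3g fell short in at least 1, Serpina3g and Rag2 when the 10 cells with most of their UMIs were left out, which took Dqx1 and Cul9 under the filter. Leaving out barcodes found in more than 1 library, also chosen after seeing the data, lost 0 of them. TMM and relative log expression scaling moved the median of all genes by under 0.1 on the log2 scale. No doublet caller was run, and leaving out the 5% of cells with most UMIs stood in for one. Genes under 10 CPM in both libraries compared, most core Notch targets among them, were left out of the counts by the chosen minimum. Where their levels are given they carry no fold, so differences among them were not assessed.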
